A study of Bos taurus with 48 samples.

Results

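Actins and myosin binding proteins build the contractile filaments of the muscle cell, and 7 of their genes were followed here through bovine muscle growth and through a period of feed restriction. ACTA1, ACTC1, ACTA2 and ACTB encode actins. MYBPC1, MYBPC2 and MYBPH encode proteins that bind myosin. A probe was taken as a member when the gene name on the array, or the symbol in brackets in its description, equalled one of the 7 symbols. By that rule 6 genes were found, and the seventh, ACTC1, was listed under its older symbol ACTC and was found through its RefSeq accession. Each gene had 1 probe, so the members were 7 of the 21475 probes on the array, and of the 15822 probes that passed the filter on dim signals. The 7 genes were chosen by symbol from a list drawn up with earlier results of these arrays known, among them the levels before and after birth, so their course through development is given as a description, without a test. The crosses, the diets and the change between 3 and 20 months of age were tested.

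All samples were biopsies of the longissimus muscle of the back, measured on 48 Agilent arrays that each held 2 samples, one labelled with Cy3 and one with Cy5. In the developmental series, calves of Piedmontese × Hereford and Wagyu × Hereford matings, labelled Piedmontese and Wagyu, were sampled at 60, 135 and 195 days of gestation, at birth, and at 3, 7, 12, 20, 25 and 30 months of age. In the nutritional series, Belmont Red cattle on a weight loss diet, called restricted below, or on a growth diet were sampled at times 0, 1 and 2, with no treatment recorded beyond the diet. This gave 26 conditions at 13 time points and 35 animals: 2, 5, 5, 6, 8, 8, 6, 8, 8 and 8 animals at the 10 developmental points in order of age, and 8, 7 and 4 at the 3 diet times. The Piedmontese breed carries an inactive form of myostatin, a brake on muscle growth, and Wagyu cattle are known for fat within the muscle. These calves were crosses, so each carried a Hereford parent's genome as well. At 60 days each cross was 1 animal, measured on 3 arrays, and the animals after birth and in the nutritional series were sampled repeatedly. At 195 days the Piedmontese animals bore the same number with the letters A and B. The labels do not say whether they are separate animals.

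Skeletal muscle fibres shorten when myosin of the thick filament pulls on actin of the thin filament. ACTA1, skeletal muscle alpha-actin, is the thin filament actin of mature fibres. ACTC1, cardiac alpha-actin, is the actin of the adult heart and is also made by developing skeletal muscle. ACTA2 is the alpha-actin of smooth muscle, found in vessel walls, and ACTB is the cytoplasmic beta-actin of all cells. Myosin binding protein C wraps the thick filament and tunes the speed of contraction, with MYBPC1 the slow form and MYBPC2 the fast form, while MYBPH is a smaller relative, myosin binding protein H.

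Because the actins are near-identical proteins, the probes are shown first: whether the 4 actin genes could be told apart depended on them. The probes were 60 bases long, and 30 bases of each are printed 5′ to 3′. Capitals mark the longest run of bases that the probe shared with any other member's probe. Positions are counted from the probe's 5′ end.
ACTA1, bases 2 to 31, run shared with ACTA2: aaaacgaagccCTGTGGAAggaaatggaaa
ACTC1, bases 29 to 58, run shared with ACTA2: gtacagtttgttTACACACgtgcaatttat
ACTA2, bases 31 to 60, run shared with ACTA1: acactgtgaatgttCTGTGGAAtaatgcct
ACTB, bases 29 to 58, run shared with ACTC1: tccaaaacaaatTTTGTTTttaatcttcgc
MYBPC1, bases 1 to 30, run shared with ACTA1: ctatgagacattCTTGAAGtctttcacaca
MYBPC2, bases 8 to 37, run shared with ACTC1: agaccttcccggACACGTttccctttcccg
MYBPH, bases 13 to 42, run shared with ACTA2: cccaaataccgaGCTCTCTctgagcagggt
Over the 21 pairs of member probes the longest shared run was 8 bases and the shortest 4. No genome of these arrays' time was at hand, so the probes were not searched against other transcripts. Runs shared between probes do not show whether a probe also binds another actin's transcript, and this was not tested.

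Levels are log2 values of the dye-corrected signal, normalized so that arrays could be compared, and each level is the mean of an animal's samples at a time point. A difference of 1 is a 2-fold change. Levels of one probe were never set against those of another, since probes differ in brightness. All 7 probes were well above background in 96 of 96 samples and no spot was saturated. Prenatal and birth samples shared 3 slides, the samples of 3 to 20 months shared 4 slides, those of 25 and 30 months lay on 2 others, and each diet time lay on a slide of its own, so slide and diet time cannot be told apart. Nor can slide and age be told apart between the samples up to birth and those from 3 months on. Both diets were on every array. The share of probes well above background ranged from 51.1 to 78.9% over the 96 samples, and the number of arrays and animals, not depth, limits the precision.

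One library stood apart and went against its tissue label. It was the Piedmontese animal GP672 at 135 days of gestation, measured once. Over all probes that passed the filter its correlation with the 4 other animals of that age was 0.926 to 0.932, against 0.989 to 0.996 for the 6 pairs among them. Its summed level of 5 skeletal fibre markers (CKM, DES, MB, TNNC2, MYH1) was 13.80, against 18.13 to 18.60 in the 4 others, and its summed level of the myoblast markers was 11.67 against 16.24 to 16.58. Its summed level of 3 adipocyte markers was 17.03 against at most 12.17, and of 5 smooth muscle markers 16.22 against 15.21 to 15.40. Fibroblast markers were at 18.25 against 17.87 to 18.03, and endothelial markers at 13.08 against 12.93 to 12.99. For ACTA1 the level was 10.02 in GP672 and 16.73 to 17.58 in the others, and its raw signal was 673 against 329000 for the animal on the same array. ACTC1 was at 11.17 against 16.77 to 17.48, and MYBPC1 at 9.80 against 13.79 to 14.71. Counts, correlations, means and differences below include GP672 unless stated. The main ones are also given without it, an alternative chosen after seeing the data, and GP672 also moves others that are given only with it.

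Across development some of the 7 genes ran together, as ACTA2 and ACTB did, and others apart. The 12 prenatal animals were set against the 9 animals of 3 to 30 months, each of the 9 averaged over its ages. These groups lay on different slides, so slide and age cannot be told apart here. Animals did not overlap for 3 members: MYBPC2 was 42.3-fold higher after birth, and ACTA2 and ACTB were 3.57-fold and 3.30-fold lower. Over all probes, animals of these groups did not overlap for 40.8%, and 43.7% without GP672. Leaving out GP672, the differences of MYBPC2, ACTA2 and ACTB were 34.2-fold, 3.34-fold and 3.23-fold. Without GP672 ACTC1 joined the 3, at 38.0-fold lower after birth. For ACTC1 this held for the averages only: a single value at 30 months reached 16.07, above the lowest prenatal animal at 15.89. The median over the 7 was 0.41 on the log2 scale, and -0.17 without GP672, with 0.03 over all probes tested. In a biopsy, fewer cells of a type and less RNA per cell cannot be told apart.

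**Figure D1:**
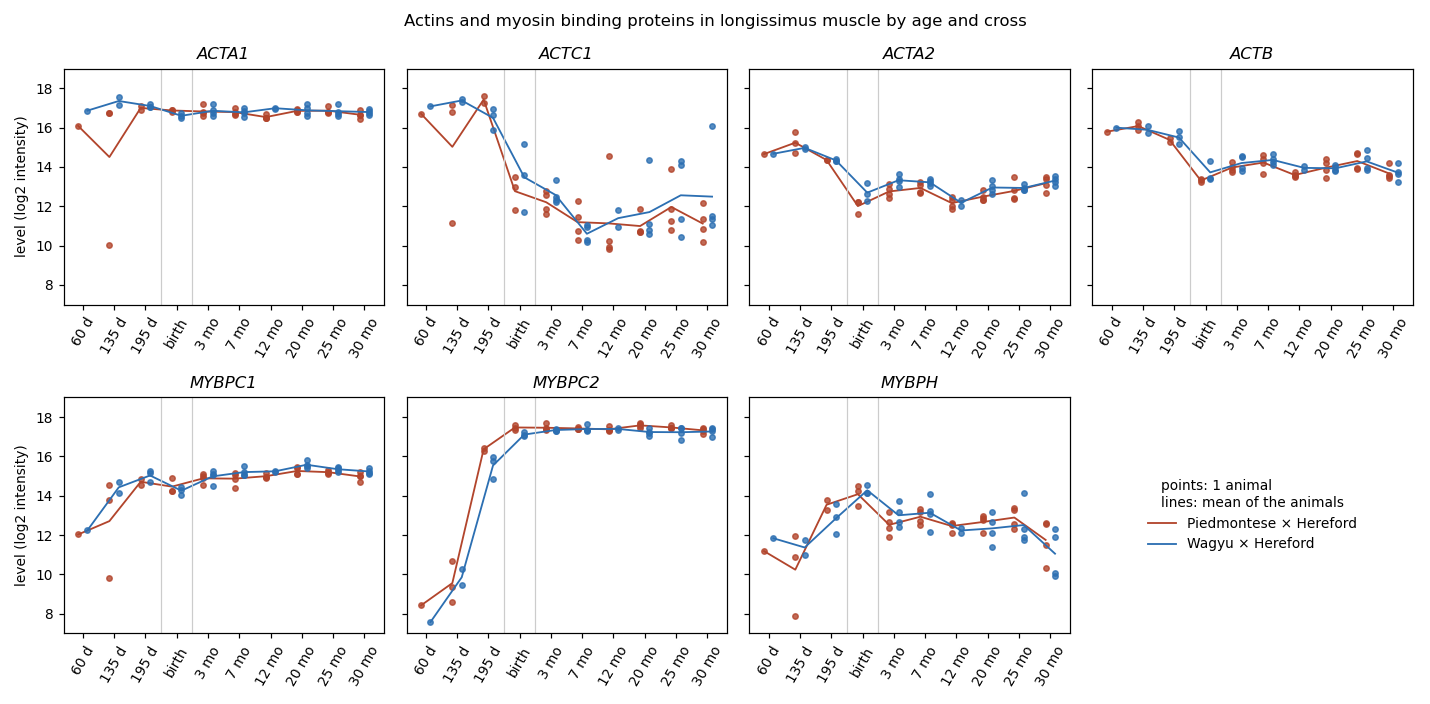
Log2 level of each member (vertical axis) at the 10 developmental time points (horizontal axis, in order of age), with 1 point per animal coloured by cross and, for each cross, a line through the mean of its animals. Over the animals of both crosses, the mean of MYBPC2 was 9.68 at 135 days and 17.29 at birth, and that of ACTC1 was 16.87 at 195 days and 13.12 at birth. The 135-day animal far below the others for ACTA1, ACTC1, MYBPC1 and MYBPH is GP672.

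ACTA1 was high from the first point on. Its mean level ± SD was 16.47 ± 0.55 at 60 days (n = 2), 17.06 ± 0.11 at 195 days (n = 5), 16.73 ± 0.18 at birth (n = 6), 16.84 ± 0.23 at 3 months (n = 8) and 16.72 ± 0.17 at 30 months (n = 8). At 135 days the mean was 15.64 ± 3.16 with GP672, while the 4 others lay between 16.73 and 17.58. From 3 to 30 months, the 46 values of 9 animals lay between 16.43 and 17.22, a 1.74-fold range, with means of 16.78 at 7, 16.68 at 12, 16.86 at 20 and 16.85 at 25 months, so after birth this actin varied little between animals or ages.

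ACTC1 was the member with the largest downward difference between developmental ages. At 195 days the animals had levels of 17.24 (GP041A), 17.61 (GP041B), 16.96 (GW024), 16.63 (GW067) and 15.89 (GW600). At birth 5 animals lay between 11.71 (GW146) and 13.56 (GW071), and GW175 was at 15.14. No newborn reached the lowest 195-day animal, and the means differed by -3.75 on the log2 scale, or 13.4-fold. Samples of both ages shared 3 slides, and within the slides the mean difference was -4.39 to -3.49. The means then were 12.39 ± 0.52 at 3 months and 10.90 ± 0.71 at 7 months (n = 8 each). Later means ran from 11.22 ± 1.81 at 12 months to 12.26 ± 1.59 at 25 months, with wide spreads.

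After birth ACTC1 was also the member that varied most between animals. The 46 values of 3 to 30 months spanned 9.81 to 16.07, a 77.0-fold range, with a median of 11.34. A few animals carried the high values. GP201 had 14.57 at 12 months and 13.90 at 25 months, GW179 had 14.36 at 20 months and 14.09 at 25 months, and GW245 had 14.32 at 25 months and 16.07 at 30 months. The last lay within the range of the 195-day fetuses. Each of these 6 values is 1 biopsy measured once, and whether the high state is a property of the animal or of the piece of muscle taken was not tested.

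**Figure D2:**
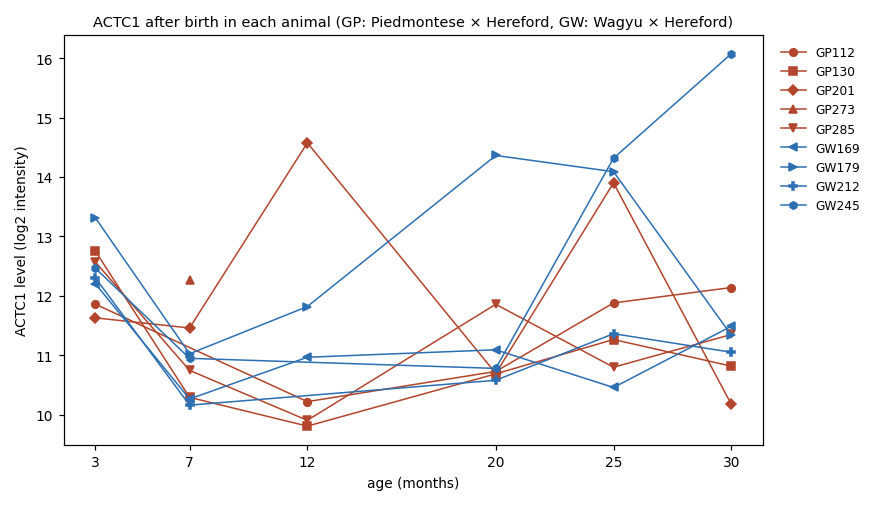
ACTC1 log2 level (vertical axis) of the 9 animals sampled from 3 to 30 months of age (horizontal axis), with 1 line per animal coloured by cross. The median of the 46 values was 11.34, and the highest was 16.07, in GW245 at 30 months.

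The other 2 actins, which are not specific to muscle fibres, were both lower at birth than at 195 days. ACTA2 was 14.35, 14.35, 14.39, 14.30 and 14.29 in the 195-day animals, and from 11.62 to 13.19 in the newborns. Over the same animals ACTB was 15.16 to 15.80 at 195 days and 13.22 to 14.32 at birth. Neither set overlapped. The difference was -1.99 for ACTA2 and -1.93 for ACTB on the log2 scale, with within-slide differences of -2.15 to -1.90 and -2.16 to -1.81. The newborn GW175 was the highest of the 6 for ACTA2, ACTB and ACTC1 alike. After birth the mean of ACTA2 ran through 13.04 at 3 months, 13.07 at 7, 12.16 at 12, 12.72 at 20, 12.85 at 25 and 13.24 at 30 months. The mean of ACTB ran through 14.08, 14.29, 13.71, 13.94, 14.29 and 13.69 at the same ages, so neither mean returned to its fetal level. From 3 to 30 months ACTA2 stayed between 11.88 and 13.63 and ACTB between 13.24 and 14.84.

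MYBPC2, the fast form, had the largest upward difference of the members between developmental ages. At 60 days it was 8.43 (GP663) and 7.58 (GW911). At 135 days it was 9.38 (GP012), 8.62 (GP672), 10.68 (GP921), 9.44 (GW625) and 10.27 (GW780), and at 195 days 16.30 (GP041A), 16.44 (GP041B), 15.77 (GW024), 14.87 (GW067) and 15.98 (GW600). Groups of consecutive ages were fully separate. From 135 to 195 days the difference was 6.19 on the log2 scale, 73.1-fold, and 60.9-fold without GP672, and within the 3 shared slides it lay between 5.08 and 6.88. A smaller step of 1.42 followed to birth, where the mean was 17.29 ± 0.23 (n = 6). After 3 months the level stayed between 16.85 and 17.70, a 1.81-fold range.

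MYBPC1, the slow form, was already present at 60 days and changed by less. Its mean was 12.14 ± 0.15 at 60 days, 13.40 ± 2.04 at 135 days, 14.91 ± 0.29 at 195 days, 14.36 ± 0.30 at birth and 15.42 ± 0.24 at 20 months. At 3, 7, 12, 25 and 30 months it was 14.94, 15.04, 15.08, 15.28 and 15.11. The 2 animals of 60 days, at 12.03 and 12.25, lay below every other animal except GP672. From 135 to 195 days its difference was 1.51, and 0.61 without GP672, and animals of these ages overlapped.

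MYBPH had a course of its own, with the highest mean at birth. Its means were 11.51 at 60 days, 10.69 ± 1.62 at 135 days, 13.13 ± 0.69 at 195 days, 14.18 ± 0.38 at birth and 12.77 ± 0.57 at 3 months. The 135-day and 195-day animals did not overlap, with a difference of 2.44, and 1.74 without GP672. From birth to 3 months the means differed by -1.41, but animals overlapped. From 3 to 30 months values ran from 9.94 to 14.12, an 18.1-fold range, with means of 13.04 at 7 months, 12.39 at 12, 12.51 at 20 and 12.70 at 25 months and the lowest, 11.41 ± 1.13, at 30 months.

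Taken step by step, animals did not overlap for 3 of the 7 members from 135 to 195 days, with 16.9% of all probes (23.6% without GP672), for 4 of 7 from 195 days to birth, with 47.3% of all probes, and for 0 of 7 from birth to 3 months, with 15.5% of all probes. The 3 of the first step were MYBPC2 and MYBPH, higher, and ACTA2, at -0.79, and -0.63 without GP672. The 4 of the second were ACTC1, ACTA2 and ACTB, lower, and MYBPC2, higher. A share of 4 in 7 is near the share of all probes at that step. With each dye channel only centred on its mean, without the loess correction, MYBPC2 stayed free of overlap at both steps, and ACTC1 and ACTB at the second.

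Ordered by mean over the 10 ages and the 6 diet groups, the animals of most neighbouring groups overlapped for each member. No share over all probes is given for these counts of pairs. For ACTA1, ACTC1, MYBPC1 and MYBPH, 0 of 15 neighbouring pairs were free of overlap, and 1 of 15 for each without GP672. That pair set off the 195-day group for ACTC1 and, at the low end of the order, the restricted animals of time 1 for ACTA1, the 60-day group for MYBPC1 and the restricted animals of time 1 for MYBPH. For ACTA2, 3 pairs were separate, those that set off 135 days at 15.13, 60 days at 14.66 and 195 days at 14.34 from what followed. For ACTB, 2 pairs were separate: the 195-day group lay above the growth-fed animals of time 1, and the growth-fed above the restricted animals of time 2. The latter pair held 2 animals of each diet. Its lowest growth-fed value was 13.81 and its highest restricted value 13.80, with a limma adjusted p of 0.999. Between these groups 31.2% of all probes were free of overlap. For MYBPC2, 3 pairs were separate, the growth-fed animals of time 1 at the top with a mean of 18.28 and the 2 youngest ages at the bottom.

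Many filament partners of the members differed over the same interval. Of 10 thin filament genes measured, 8 were higher after birth with no overlap between the 12 prenatal and 9 later animals, and 0 were lower, with a median difference of 1.49. Of all probes 21.8% were higher without overlap, and 23.5% without GP672. Among them were the pointed-end cap TMOD4 at 4.69, the filament regulator LMOD2 at 3.59 and NEB, the giant ruler protein nebulin, at 2.88. Of 5 thick filament and M-band genes 3 were higher, with TTN, the elastic giant titin, at 3.73. Of 12 genes of the Z-disc, which anchors the thin filaments, 8 were higher, led by the fast-fibre alpha-actinin ACTN3 at 4.96 and by PDLIM3 at 4.23, and 0 were lower. Of 6 regulators of actin genes 4 were higher (TEAD1 at 1.43, MEF2A at 1.41, MEF2D at 1.07, MKL2 at 0.83), while SRF, the serum response factor, had -0.54 with overlap. The 4 close relatives split: ACTG1, cytoplasmic gamma-actin, had -1.69 without overlap, and ACTG2, MYBPC3 and MYBPHL overlapped at 1.00, -1.20 and 0.25. Without GP672 ACTG2 was higher without overlap, at 1.35, and the counts of the other lists of this paragraph were the same. Differences without GP672 were smaller for TMOD4 (4.37), LMOD2 (3.15), NEB (2.56), TTN (3.36), ACTN3 (4.64) and PDLIM3 (3.92). The thin filament median was then 1.37. Lower after birth without overlap were 3010 of all 15822 probes. The list of 6 fibroblast markers had 5 lower and 0 higher, with a median of -2.59, beside the lower ACTA2 and ACTB, and of 5 smooth muscle markers 1 was lower (CNN1, -2.41) and 1 higher (LMOD1, 1.58). Their part in the levels of ACTA2 and ACTB was not tested.

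The genes whose course was most like that of each member were found from the Pearson correlation of the 26 condition means over 14787 genes. The conditions share slides, animals and the strong contrast between fetal and later muscle, so these values are a description. MYBPC2 was closest to the fast-fibre genes ACTN3 (0.993), MYH1 (0.990) and TMOD4 (0.989). ACTB was closest to OLFML2B (0.983), BF076400 (0.982) and the laminin gene LAMA4 (0.981), and ACTA2 to the actin crosslinker FLNA (0.972), BM255543 (0.965) and VAT1 (0.957). MYBPH was closest to its relative MYBPHL (0.967), then DLG1 (0.852) and TAF12 (0.849). Without GP672 the genes in first place for these 4 members still held it, at 0.993, 0.984, 0.968 and 0.973, while for MYBPH DLG1 and TAF12 had 0.785 and 0.784 and gave way to KRT35 (0.837) and WDR1 (0.824).

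For the remaining members, MYBPC1 was closest to PPP1R3A (0.951), SVIL (0.950) and CA3 (0.950), and ACTC1 to GPC4 (0.952), PTOV1 (0.949) and ASNS (0.943). ACTA1 had no close match, with PDLIM7 (0.780), PFDN4 (0.750) and the myosin light chain MYL1 (0.726) at the top. Without GP672 the order changed: MYL1 (0.781) led for ACTA1, PTOV1 (0.962) for ACTC1 and MYOC (0.958) for MYBPC1, for which PPP1R3A had 0.940. Among the members themselves the correlation was highest for ACTA2 with ACTB (0.943) and for MYBPC1 with MYBPC2 (0.887), and lowest for ACTB with MYBPC2 (-0.833). Without GP672 these were 0.942, 0.841 and -0.831. Over the 12 conditions of 3 to 30 months alone they were 0.288, -0.37 and 0.149.

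The crosses were compared to see whether the genes differ between a lean, heavily muscled and a fat-depositing cross. Before and at birth, with 9 animals of each cross and the time point in the model, limma called 0 of the 7 members and 0 of all 15822 probes (0%) at an adjusted p of 0.05. At an unadjusted p under 0.05 it had 0 members and 653 probes. The Piedmontese minus Wagyu difference was -0.80 ± 0.74 (SE) for ACTA1, -0.67 ± 0.74 for ACTC1, -0.51 ± 0.49 for MYBPC1 and 0.36 ± 0.25 for MYBPC2. Without GP672 these were -0.17, -0.13, -0.11 and 0.51, and the first 3 shrank. The 95% interval of the MYBPC2 difference, -0.16 to 0.89, leaves room for a difference in either direction.

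After birth, with 5 Piedmontese and 4 Wagyu animals each averaged over its ages, limma again called 0 of 7 members and 0 of all probes (0%), with 2 members and 754 probes at an unadjusted p under 0.05. ACTA2, relative to the mean of its time point, was -0.11 (GP112), -0.22 (GP130), 0.03 (GP201), -0.00 (GP273) and -0.26 (GP285) in the Piedmontese animals and 0.15 (GW169), 0.12 (GW179), 0.16 (GW212) and 0.16 (GW245) in the Wagyu animals. The crosses did not overlap for this 1 of the 7 members, as for 1.66% of all probes, and the difference of -0.26 ± 0.07 (SE) had an adjusted p of 0.658. MYBPC1 differed by -0.33 ± 0.13 with an adjusted p of 0.960 and overlapping animals. Its lowest animal, at -0.62, was GP273, which was sampled at 7 months only and counted the same as the others. The other 5 members differed by -0.20 to 0.21. On simulated data the same model recovered 96% of 2-fold changes in both cross comparisons, over probes drawn at random. That share does not hold for members with a wide SE, such as ACTA1 (0.74) before and at birth and ACTC1 (0.52) after birth.

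Between 3 and 20 months of age, 2 members changed within the 8 animals sampled at both ages on shared slides. MYBPC1 rose in 8 of 8 animals, by 0.19 at the lowest, 0.44 at the median and 0.89 at the highest, and its mean change was 0.48 ± 0.08 (SE) with a limma adjusted p of 0.00181. Within the 4 slides the change was 0.23 to 0.72. ACTC1 fell in 7 of 8 animals, with changes from -2.07 to -0.71 in those and 1.05 in GW179, and its mean change of -1.04 ± 0.28 had an adjusted p of 0.0198. By slide its change ran from -1.59 to 0.06. Of all probes 27.6% were called, so 2 of 7 members is near the background. With each channel only centred on its mean, 0 members and 84 probes passed, and the change was 0.76 for MYBPC1 and -0.89 for ACTC1.

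The 5 other members did not pass. Their mean changes lay between -0.32 for ACTA2 (adjusted p = 0.107) and 0.03 for ACTA1 (adjusted p = 0.877), and the interval for ACTA1 was -0.22 to 0.28. With 30 months in place of 20, MYBPH at -1.36 passed, and MYBPC1 at 0.17 and ACTC1 at -0.58 did not. Those samples lay on other slides than the 3-month ones. Of all 15822 probes 1836 were called higher at 20 than at 3 months and 2527 lower. Among the fixed lists, 5 of 6 actin gene regulators rose (MEF2C by 0.49, MEF2A by 0.35, MEF2D by 0.35, SRF by 0.33, TEAD1 by 0.23) and MKL2 fell, at -0.31. Of 10 thin filament genes 3 rose (LMOD2, CFL2 and TPM2, by 0.40, 0.32 and 0.25) and CAPZB fell, at -0.50.

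The diet series asked how muscle responds to feed restriction and refeeding. At time 0 the diets did not differ by test in any member: limma called 0 of 7, with 0.999% of all probes called and 2 members at an unadjusted p under 0.05. ACTA1 was 16.07, 17.16, 16.64 and 16.65 in the restricted animals RL24, RL27, RL322 and RL671 and from 16.79 to 17.54 in the 4 growth animals, a difference of -0.54 (95% interval -1.10 to 0.02). ACTA2, from 12.44 to 12.79 against 12.80 to 13.22, was the one member without overlap, with 9.8% of all probes free of overlap, at -0.30 and an adjusted p of 0.313.

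At time 1 ACTA1 was far lower in the restricted animals. Its level was 11.65 in RL27, 11.80 in RL671 and 11.65 in RL24, against 17.27, 17.28, 18.46 and 18.44 in the growth animals. The groups lay far apart. Among the growth animals the lower values, RG604 and RG157, were labelled with Cy5 and the higher, RG166 and RG208, with Cy3. Dye and animal thus cannot be told apart within that group. The value of RL24 is the mean of 2 arrays, at 11.84 and 11.46, a wider gap than that between the restricted animals. The difference between the diets was -6.16 ± 0.34 (SE), 71.4-fold lower, with a limma adjusted p of 0.00091, and it was the largest of 15822 probes by size. On each of the 4 arrays the restricted sample was lower, with log2 differences of -6.81 to -5.43, and the raw signals before any correction, dye differences included, differed by 22.6 to 220-fold. For the 6 other members the corrected differences were also below 0 on all 4 arrays, but raw ratios of growth to restricted went down to 0.610 for ACTA2, 0.423 for ACTB, 0.980 for MYBPC2 and 0.948 for MYBPH. RL24 was on 2 of the 4 arrays.

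**Figure D3:**
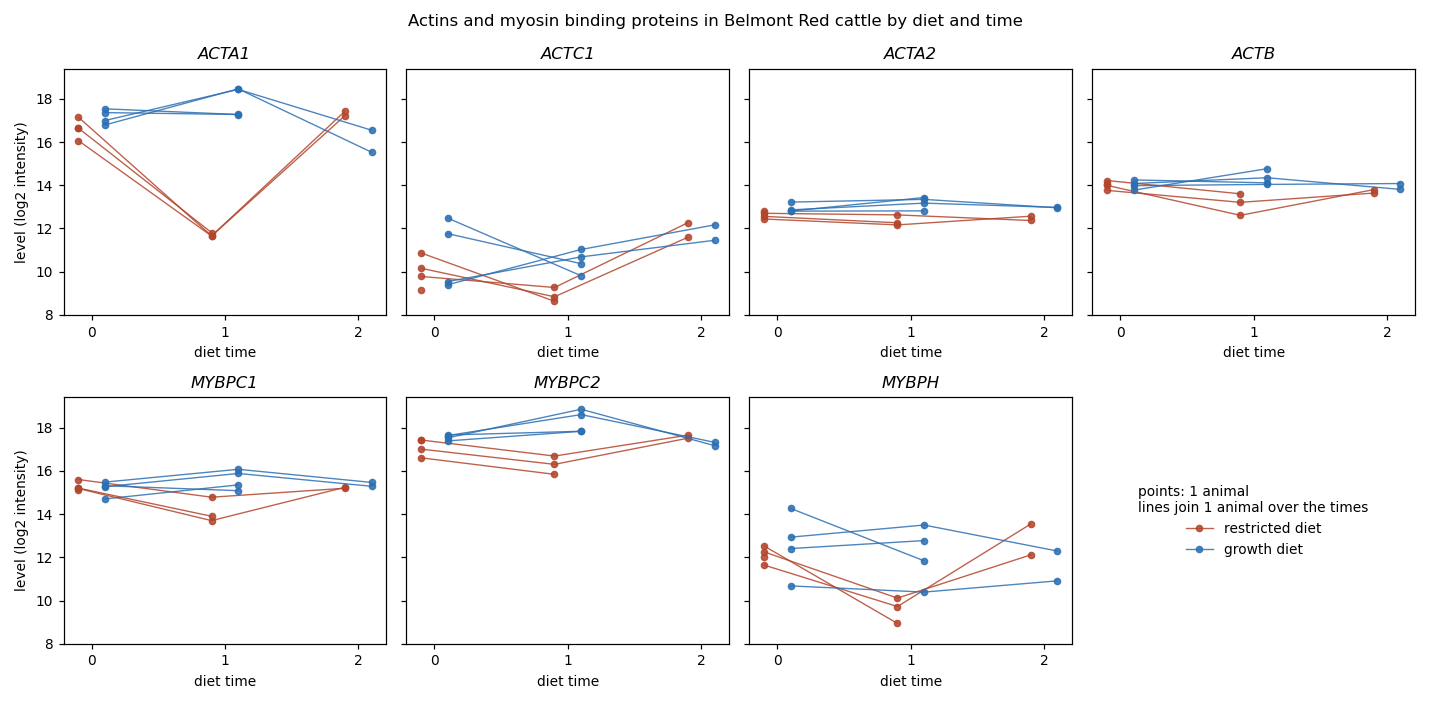
Log2 level of each member (vertical axis) at diet times 0, 1 and 2 (horizontal axis), with 1 point per animal, restricted and growth animals in separate colours, and lines that join 1 animal over the times. At time 1 all 7 members were lower in the 3 restricted than in the 4 growth animals with no overlap, and ACTA1 stood at 11.65 to 11.80 against 17.27 to 18.46.

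The other actins were lower in the same 3 animals. ACTC1 was 9.27 (RL27), 8.63 (RL671) and 8.84 (RL24) against 9.81 (RG604), 10.37 (RG157), 11.03 (RG166) and 10.68 (RG208), a difference of -1.56 ± 0.29 and 2.95-fold (adjusted p = 0.0162). ACTA2 was 12.16, 12.26 and 12.63 against 12.81 to 13.43, a difference of -0.84 ± 0.18 (adjusted p = 0.0256). ACTB was 12.61, 13.60 and 13.21 against 14.04 to 14.76, a difference of -1.18 ± 0.26 (adjusted p = 0.0285). None of the 3 overlapped between the diets. ACTB, often taken as a reference gene for expression assays, was thus 2.26-fold lower.

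The myosin binding proteins went the same way. MYBPC2 was 16.30 (RL27), 15.84 (RL671) and 16.69 (RL24) against 17.84 (RG604), 17.83 (RG157), 18.61 (RG166) and 18.86 (RG208), a difference of -2.01 ± 0.31 and 4.02-fold (adjusted p = 0.0104). MYBPC1 was 13.70, 13.90 and 14.78 against 15.09 to 16.08, a difference of -1.47 ± 0.33 (adjusted p = 0.0272). Neither overlapped. MYBPH was 9.72, 8.94 and 10.11 against 11.84, 12.77, 13.50 and 10.39, and its larger difference of -2.53 ± 0.69 missed the threshold at an adjusted p of 0.0501, with RG208 close to the restricted animals.

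So 6 of the 7 members were called lower in the restricted animals at time 1, with a median over the 7 of -1.56, while limma called 13.6% of all probes in either direction and 6.64% as lower, and the median over all probes was 0.00. All 7 members were lower without overlap between the diets, as were 14.3% of all probes. Leaving out the arrays of 1 number in turn, ACTA1 passed in 4 of 4 cases, ACTC1 and MYBPC2 in 2 of 4, MYBPC1 and ACTA2 in 1 of 4 and ACTB in 0 of 4, with the direction kept each time. With an array number left out, members called numbered 1 to 4, and probes called 211 to 1439 against 2153. Dropping an array number removes an animal of each diet or, for RL24, 1 of its arrays. With the array as a block and all arrays in, MYBPC1 at -1.31 no longer passed and MYBPH at -2.40 did, with 2636 probes called. Of the 9 alternatives of processing, ACTA1, ACTC1 and MYBPC2 passed in 9, ACTA2 and ACTB in 8, MYBPC1 in 7 and MYBPH in 6.

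**Figure D4:**
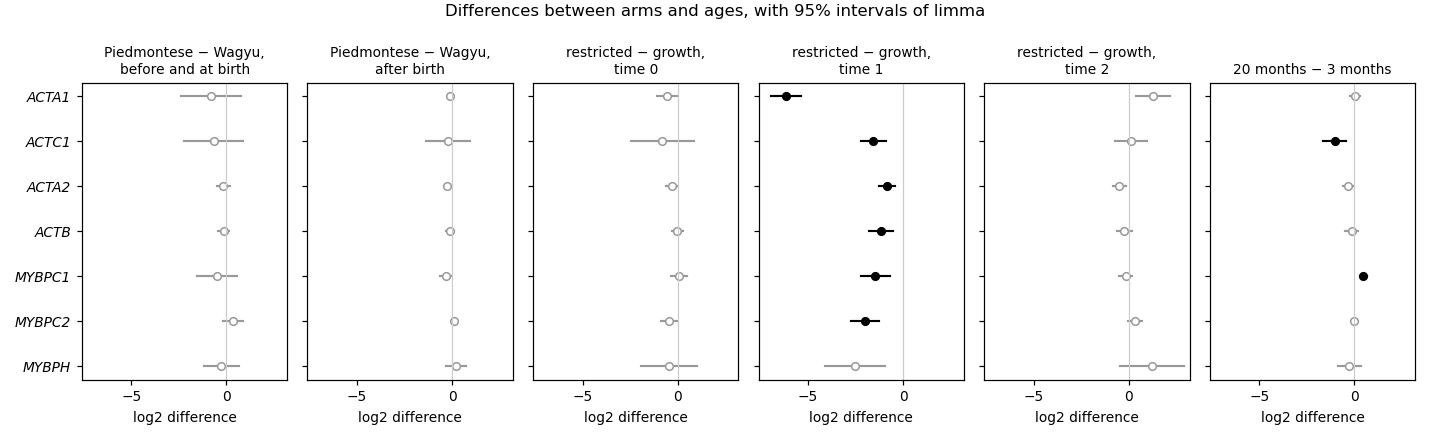
Log2 difference of each member (horizontal axis) between the crosses, between the diets at each time and from 3 to 20 months of age, with 95% intervals from limma as bars and filled points where the adjusted p was under 0.05. The diet difference at time 1 was below 0 for all 7 members and reached -6.16 for ACTA1, and the 2 cross comparisons had no filled point.

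The neighbours of the members in the sarcomere differed in part between the diets at time 1, where 6.64% of all probes were called lower. Of 10 thin filament genes 4 were called lower in the restricted animals and 0 higher: TPM1 at -1.80 and TPM2 at -1.54, which encode tropomyosins that lie along actin, CAPZA2 at -1.42 and NEB at -0.99. The list's median was -0.69. Of 12 Z-disc genes 3 were lower (ACTN3 at -1.57, LDB3 at -1.49, ACTN2 at -0.95), with a median of -0.13. Of 5 thick filament and M-band genes 0 passed, with a median of -0.99, and of 6 regulators 1 was lower, TEAD1 at -0.84. Among the 4 relatives, ACTG1 at -1.30 and ACTG2, the gamma-actin of smooth muscle, at -1.71 were lower, MYBPHL had -1.68 (adjusted p = 0.0565) and MYBPC3, the cardiac form, 0.03.

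Markers of fibres and of other cells differed beside them, again with 6.64% of all probes called lower. Of 5 skeletal fibre markers 3 were lower (MB at -2.52, MYH1 at -1.80, CKM at -1.55) and DES, the intermediate filament desmin, was higher, at 1.33. The summed skeletal fibre level was 18.88 to 19.27 in the restricted and 19.58 to 20.55 in the growth animals. Of 4 slow fibre markers 2 were lower (MYL3 at -4.05 and MYH7 at -1.40), and of 5 fast fibre markers 3. Of 6 fibroblast markers 4 were lower (COL3A1 at -4.48, COL1A1 at -4.38, COL1A2 at -4.06, LUM at -1.68), with a summed level of 13.11 to 13.88 against 15.32 to 17.15. Of 5 smooth muscle markers 0 passed, with a median of -0.70 and a summed level of 13.72 to 14.11 against 14.24 to 14.94, and of 3 endothelial markers 2 were lower, with 11.98 to 12.18 against 12.57 to 13.17. Blood and immune markers had 1 of 4 lower and 10.96 to 11.49 against 11.77 to 12.37. Of the 3 myoblast markers 0 passed, with 14.50 to 14.76 against 13.12 to 14.72, and of 3 adipocyte markers 0 passed, with 9.49 to 10.75 against 9.60 to 12.74. The part of cell composition in the lower levels of the members was not tested.

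Whether the change from time 0 to time 1 differed between the diets was tested on the 3 restricted and 4 growth animals measured at both times. For ACTA1 the change was -4.42 (RL24), -5.50 (RL27) and -4.85 (RL671), against -0.09 (RG157), 1.67 (RG166), 1.44 (RG208) and -0.26 (RG604). These did not overlap, and the diets' changes differed by -5.61 ± 0.53 (SE) with a limma adjusted p of 0.00516. RG166 and RG208 carried Cy5 at time 0 and Cy3 at time 1, and RG157 and RG604 the reverse. Dye and animal thus cannot be told apart in the split among the growth animals. MYBPC1 differed by -1.61 ± 0.26 (adjusted p = 0.0177) and MYBPC2 by -1.47 ± 0.27 (adjusted p = 0.0229). So 3 of 7 members were called, all lower, with 8.06% of all probes called and 4.01% called as lower. ACTB at -1.15 had an adjusted p of 0.0626, MYBPH at -2.10 one of 0.118, ACTA2 at -0.48 one of 0.122 and ACTC1 at -1.04 one of 0.565. Without the arrays numbered 1 or numbered 4, 0 members were called, with ACTA1 at -4.97 and -5.39. With the array as a block MYBPC1 at -1.54 no longer passed and ACTB at -1.32 did.

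At time 2 only 2 animals of each diet were measured, on 4 arrays, and limma called 0 members and 0 probes (0%), with 2 members and 888 probes at an unadjusted p under 0.05. ACTA1 was 17.43 (RL27) and 17.22 (RL24) in the restricted and 15.53 (RG166) and 16.55 (RG208) in the growth animals. Both restricted animals, which had stood at 11.65 at time 1, were thus above both growth animals, at 1.29 ± 0.35 (SE) with an adjusted p of 0.771. MYBPC2 was at 17.51 and 17.66 against 17.32 and 17.17, MYBPC1 at 15.24 and 15.20 against 15.29 and 15.47, and ACTB at 13.80 and 13.64 against 14.08 and 13.81. ACTA2 was at 12.57 and 12.37 against 12.97 and 12.95, a difference of -0.50. For 5 of 7 members the animals did not overlap, with 31.2% of all probes free of overlap. On simulated data this comparison recovered 0% of 2-fold and 55% of 4-fold changes, so a miss at time 2 says little.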

How the data were processed

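RNA from longissimus muscle was hybridised by the authors to Agilent 2-colour bovine arrays, and within a time point some arrays had the dyes exchanged. The deposited files hold, per the file headers, each spot's mean intensity and local background intensity in both dyes, and a log10 ratio of Cy5 over Cy3 that Agilent Feature Extraction 9.5.1 (the submitters' processing notes) had background-subtracted and dye-normalized; it served as an alternative. The mixed model described in the methods works on log2 intensities centred by group; its values were not used here.

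Intensities were corrected with normexp (offset 50), loess-normalized within arrays and Aquantile-normalized between arrays (limma 3.58.1, R 4.3.3); outlier and control spots were left out, and spots of a probe were averaged. Probes well above background in at least 24 of 96 channels were kept. The dye effect of each probe was removed by least squares, and channels of an animal at a time point were averaged. Symbols came from the files, updated through gene numbers (9987 probes), accessions (3524) or symbols (2921) of the RefSeq table of assembly ARS-UCD2.0; 5043 kept the file's name.

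Groups came from the labels. GP041A and GP041B were counted as separate animals, though the labels do not say whether they are twins or pieces of 1 animal. Tests were limma's moderated test, two-sided, with Benjamini-Hochberg adjustment over all 15822 probes and a threshold of 0.05. P-values for animals on 1 slide may include its spread. The members and gene lists were chosen with earlier results of these data known. Every member was named, with up to 4 genes of each list by size of difference, and the 3 genes most like each member. The model was tested on simulated data. Alternatives were plain background subtraction, channels centred on their mean, quantile normalization, other filters, gene means, no dye correction, the deposited ratios, the array as block, arrays left out by number, 30 months for 20, and GP041A with GP041B as 1 animal. Python 3.11.15 drew the figures (matplotlib 3.10.9).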

Additional observations from a re-analysis of the deposited data

Results flagged for a closer look

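In 140 groups of 4 to 10 animals the highest and the lowest animal were set against the rest, and 19 groups had one that lay apart from the nearest other by more than Dixon's limit. Chance gives about 1 in 20 such groups. For ACTC1 these were GP201 at 12 months (14.57), GP285 (11.86) and GW179 (14.36) at 20 months and GW245 at 30 months (16.07), all above the other animals of their cross, and the change from 3 to 20 months in GW179 (1.05). GP672 lay below the other Piedmontese animals before and at birth, relative to the mean of the time point, by -5.91 for ACTA1, -5.03 for ACTC1, -3.77 for MYBPC1 and -2.90 for MYBPH, and GW175 lay above the Wagyu animals for ACTA2 (0.85).

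Smaller gaps were seen for ACTA1 in GP130 at 12 months (16.69) and GP285 at 25 months (17.10), and for MYBPC2 in GW179 at 7 months (17.63) and GP112 at 12 months (17.53) and 25 months (17.60). At diet time 0, RL24 stood out for MYBPC1 (15.60) and RG208 for ACTA2 (13.22). The change from diet time 0 to 1 of MYBPC1 was lowest in RG604 among the growth animals (-0.23), and the change of MYBPH from 3 to 20 months was lowest in GW212 (-2.33). Their cause was not tested.

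The diets differed in the change from time 0 to time 1 by limma's test for ACTA1 (-5.61), MYBPC1 (-1.61) and MYBPC2 (-1.47).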

How the results depend on the processing

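Of 644 values of single members under the alternatives of the tested comparisons, 576 kept their direction and their side of the threshold, 37 no longer passed, 11 newly passed and 20 turned direction, none of which had passed. ACTA1 at diet time 1 passed under all 9 alternatives and all 4 sets left out.

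With channels centred on their mean, members called fell to 1 for the diets' change over time and to 0 for age. Members whose animals did not overlap numbered 1 for prenatal to post-natal, 135 to 195 days and birth to 3 months alike. Over the 4 steps they numbered 6 in all against 10. From prenatal to post-natal ACTA2 and ACTB then overlapped. Turned under it were ACTA1 (0.13) and ACTB (0.12) for the cross after birth, ACTB for age (0.092), ACTA1 (0.34) and MYBPC1 (0.057) from 195 days to birth, and ACTA1 (-0.32) and MYBPC2 (-0.16) from birth to 3 months. At diet time 1, 64.3% of called probes were higher, against 51.2%. Without GP672, MYBPH turned for the cross before birth (0.057), ACTA1 from prenatal to post-natal (-0.17) and ACTC1 from 135 to 195 days (-0.30). ACTB at diet time 0 turned with quantile normalization (0.040) and with deposited ratios (0.021). With 30 months for 20, 1 member passed (MYBPH) against 2, and ACTA1 (-0.11), ACTA2 (0.20) and MYBPC2 (-0.10) turned.

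Leaving out arrays by number, members called ranged from 1 to 4 at diet time 1, from 0 to 4 for the diets' change over time and from 1 to 2 for age. Directions turned within these ranges: before birth ACTA2 -0.25 to 0.071 and ACTB -0.21 to 0.0045, after birth ACTC1 -0.93 to 0.082 and MYBPH -0.036 to 0.44, at diet time 0 ACTB -0.063 to 0.029, MYBPC1 -0.021 to 0.21 and MYBPH -1.23 to 0.082, and for age ACTA1 -0.040 to 0.064 and MYBPC2 -0.035 to 0.077.

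Array numbers held the same animals at many but not all ages and diet times, and both arms shared each array. With the array as replicate block, ACTA1 at diet time 1 was -6.17, MYBPC1 lost its call at diet time 1 (-1.31) and for the diets' change over time (-1.54), and MYBPH at time 1 (-2.40) and ACTB for the change over time (-1.32) gained one. Probes called over the alternatives ranged from 0 to 171 at diet time 0 (158 in the report), from 0 to 254 at time 2 (0), from 442 to 1257 for the diets' change (1276) and from 84 to 5494 for age (4363), and with arrays left out from 0 to 11, 211 to 1439 at time 1 (2153), 21 to 726 for the change and 2766 to 3798 for age. The causes were not tested.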

Other observations

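At 25 months the log ratios of arrays 1 and 3, which carry the dyes in the same orientation, correlated at -0.34 over all probes, and at -0.29 before normalization. At 20 months arrays 3 and 4, in opposite orientations, correlated at 0.459, which becomes -0.46 after turning the sign. In both cases the arrays held different animals, so the values of the same fetuses that follow are no measure for them. Of the 3 arrays that held the same 2 fetuses of 60 days, the 2 comparisons with dyes swapped gave 0.745 and 0.767 after turning, and the 1 in the same orientation gave 0.785. The labels state the dye of every sample, so directions were kept as labelled.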
